A study of Mus musculus with 16 samples.

Results

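A total of 221 mouse gene intervals carried the repressive histone mark H3K27me3 and also produced RNA in control Th0 cells, which are CD4 T cells activated without polarising cytokines. They were chosen with 2 thresholds from the 22265 gene intervals present in both the RNA-seq and the ChIP-seq counts. The first was an H3K27me3 density of at least 1.5 CPM per kb (reads per 1000000 counted reads, divided by the length of the interval in kb) in both control Th0 ChIP libraries. The second was an RNA level of at least 2 CPM in all 3 control Th0 RNA libraries. Another 3828 intervals passed the H3K27me3 threshold alone, 9800 passed the RNA threshold alone and 8416 passed neither. Both measurements are averages over bulk cultures from differently numbered samples, so they do not show whether the marked and the transcribed copies of a gene lay in the same cells. For the same reason, fewer cells of a type and less RNA per cell cannot be told apart in any value below.

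All cells were naive CD4 T cells sorted from mice whose 2 Ezh2 alleles were floxed. In the Ezh2-deleted groups (Ezh2KO in the sample names) a Cre recombinase driven by Cd4, a promoter active from thymic development onward, removed the floxed part of the gene, and the controls were floxed mice without Cre. Stimulation was through CD3 (antibody at 5 ug/ml) and CD28 (antibody at 1 ug/ml). The iTreg cultures, meant to yield induced regulatory T cells, received 200 U/ml IL-2 and 5 ng/ml TGF-beta1, and the Th0 cultures received 50 U IL-2. The 4 RNA groups had 3 libraries each: Ezh2-deleted iTreg (Ezh2KO.150, Ezh2KO.153 and Ezh2KO.165), control iTreg (154, 155 and 177), Ezh2-deleted Th0 (Ezh2KO.165, then Ezh2KO.174, then Ezh2KO.175) and control Th0 (173, 176 and 177). Per-library values are given in that order throughout. H3K27me3 ChIP-seq was made from Th0 cells alone, with Ezh2-deleted libraries 10 and 9 and control libraries 33 and 7. Sample titles date iTreg cells to day 5 and Th0 cells to day 4, whereas the protocol has all cells harvested at day 4. The design text calls the libraries of a group biological replicates, and the names Ezh2KO.165 and 177 each occur in both cultures.

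Ezh2 is the catalytic subunit of Polycomb repressive complex PRC2, which places methyl groups on lysine 27 of histone H3. The trimethylated form, H3K27me3, covers silent developmental and lineage genes and is read by Cbx proteins of the partner complex PRC1, which compacts chromatin and ubiquitinates histone H2A. Genes that carry the mark and are still transcribed are found where a promoter also carries activating marks, or where a population mixes cells in both states. In CD4 T cells the mark is known to lie over genes of other T helper lineages, including transcription factors such as Eomes and Prdm1 and cytokine genes.

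Promoter sequences are shown for 6 of the genes, because promoters rich in CG dinucleotides are where PRC2 is usually found. The RefSeq table (build GRCm38.p6, the assembly also called mm10) had a transcription start within 1000 bases of the interval start for 138 of the 221 genes (62.4%), which is too few for any statement on promoter composition over the set. Each sequence holds the 250 bases before the start, 5′ to 3′ on the gene's strand, with every CG in capitals. The first 3 genes had the highest control H3K27me3 density among those with a match.
Mt1: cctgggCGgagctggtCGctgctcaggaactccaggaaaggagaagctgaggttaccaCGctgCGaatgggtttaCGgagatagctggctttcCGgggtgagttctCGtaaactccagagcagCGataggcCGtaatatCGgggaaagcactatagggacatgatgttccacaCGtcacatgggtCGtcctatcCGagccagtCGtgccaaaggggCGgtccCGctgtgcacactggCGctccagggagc
Zfp580: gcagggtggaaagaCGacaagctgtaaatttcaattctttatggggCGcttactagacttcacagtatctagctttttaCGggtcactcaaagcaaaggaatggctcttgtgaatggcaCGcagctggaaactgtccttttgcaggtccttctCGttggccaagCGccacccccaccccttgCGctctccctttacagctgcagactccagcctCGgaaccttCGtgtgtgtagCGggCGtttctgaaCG
H2-Q10: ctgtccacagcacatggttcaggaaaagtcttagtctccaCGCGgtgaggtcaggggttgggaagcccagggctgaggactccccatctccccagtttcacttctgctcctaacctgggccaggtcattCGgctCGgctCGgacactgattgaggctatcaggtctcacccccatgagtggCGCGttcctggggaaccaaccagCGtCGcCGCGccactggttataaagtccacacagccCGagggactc

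Mt1 encodes a metallothionein, a small metal-binding protein, and its sequence lies at chr8:94178839-94179088 on the plus strand and holds 17 CG. Zfp580, a zinc finger protein gene, is shown at chr7:5051282-5051531 on the plus strand with 12 CG. H2-Q10 encodes a class Ib MHC heavy chain and is shown at chr17:35469839-35470088 on the plus strand, also with 12 CG.

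The other 3 genes had the largest increases in RNA in Ezh2-deleted iTreg cells among those with a match.
Eomes: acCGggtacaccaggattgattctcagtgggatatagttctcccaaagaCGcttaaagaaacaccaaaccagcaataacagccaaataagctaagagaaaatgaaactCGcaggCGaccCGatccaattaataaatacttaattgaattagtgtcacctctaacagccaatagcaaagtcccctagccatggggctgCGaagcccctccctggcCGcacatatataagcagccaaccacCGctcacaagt
Hic1: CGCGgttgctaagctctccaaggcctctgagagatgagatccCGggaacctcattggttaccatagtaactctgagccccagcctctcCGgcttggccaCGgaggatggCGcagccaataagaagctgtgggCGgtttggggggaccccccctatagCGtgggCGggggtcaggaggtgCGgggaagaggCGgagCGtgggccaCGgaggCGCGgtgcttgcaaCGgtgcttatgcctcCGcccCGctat
AA467197: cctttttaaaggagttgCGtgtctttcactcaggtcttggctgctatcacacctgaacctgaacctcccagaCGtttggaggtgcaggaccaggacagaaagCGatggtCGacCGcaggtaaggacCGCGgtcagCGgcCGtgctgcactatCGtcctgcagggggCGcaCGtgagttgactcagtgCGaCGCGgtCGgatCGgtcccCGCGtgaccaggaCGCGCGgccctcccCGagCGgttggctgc

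Eomes encodes a T-box transcription factor of memory and cytotoxic T cells, and its sequence lies at chr9:118477939-118478188 on the plus strand with 8 CG. Hic1, a zinc finger transcriptional repressor, is shown at chr11:75170256-75170505 on the minus strand with 18 CG. AA467197, a gene with no established name, is shown at chr2:122637637-122637886 on the plus strand with 24 CG. CG is its own reverse complement, so these counts hold for both strands. In the whole table of 32851 promoters, 92.1% held at least 1 CG in the same window, the median was 6 and the upper quartile 16. By that scale Eomes lay just above the median promoter, and Mt1, Hic1 and AA467197 lay above the upper quartile. A count of letters says nothing about binding or methylation.

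RNA libraries held 21910114 to 28443427 counted reads and ChIP libraries 11124172 to 15103496. Ezh2 RNA averaged 96.5 ± 41.5 CPM in Ezh2-deleted iTreg and 219 ± 46.1 CPM in control iTreg, and 157 ± 11.1 CPM in Ezh2-deleted Th0 and 305 ± 8.56 CPM in control Th0 (SD, n = 3 each). These counts cover the whole gene, deleted exons or not, so they show the direction of the labels and not how completely the allele was removed. A list of CD4 T cell markers (9 of 10 found) summed to 2811 to 4324 CPM in Ezh2-deleted iTreg and 3290 to 3738 CPM in control iTreg. In Th0 it summed to 2125, 2444 and 2484 CPM in Ezh2-deleted libraries, against 3628, 3639 and 3538 CPM in controls, and 7 of the 9 genes lay below their controls in every Ezh2-deleted Th0 library. The part of this difference in the Th0 values below was not tested. The Ezh2-deleted iTreg library Ezh2KO.165 and the control iTreg library 177 stood apart from the other libraries of their groups. Where 2 more values follow the statistics of a called iTreg difference after a semicolon, they are its log2 difference without Ezh2KO.165 and without both libraries.

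The members were mostly modestly expressed genes under moderate H3K27me3. Their mean control density ran from 1.51 to 9.04 CPM per kb with a median of 2.06, against 2.26 in the marked intervals below the RNA threshold and 0.461 in expressed intervals below the H3K27me3 threshold. Per kb of exon, the scale on which genes can be compared, their control Th0 RNA had a median of 2.17 CPM per kb, against 12.3 in expressed intervals below the H3K27me3 threshold. Since both thresholds were set on these values, these are descriptions of the choice. Across the 221 genes control density and control RNA per kb of exon ran nearly independently (Spearman rho 0.08). Interval length had a median of 12.7 kb and ranged from 0.297 to 519.7 kb.

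**Figure D1:**
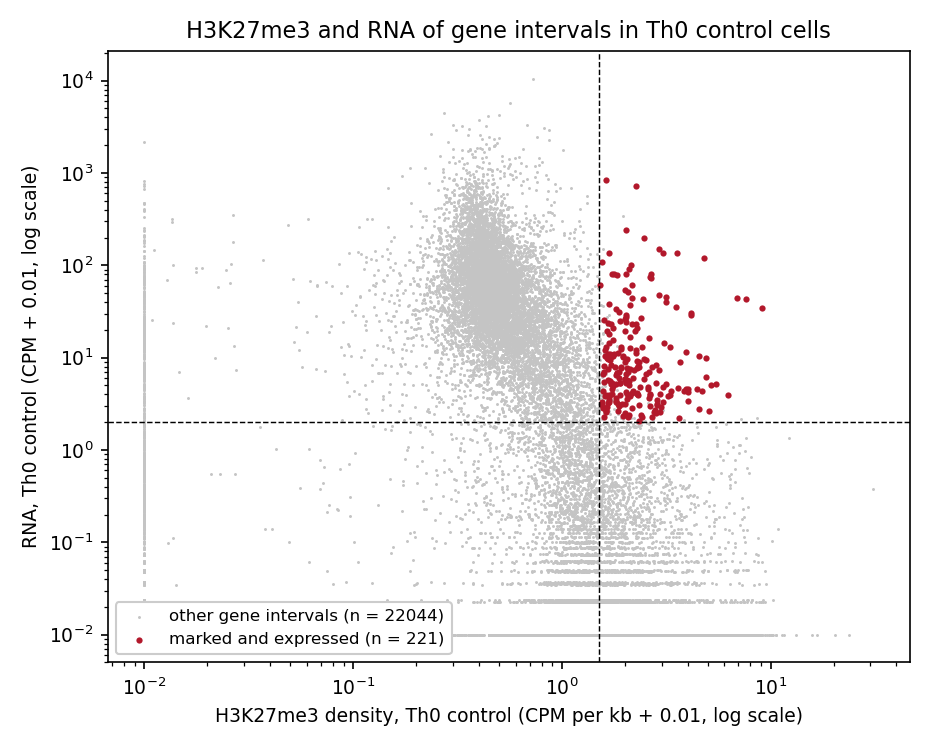
H3K27me3 density (x axis, CPM per kb plus 0.01, log scale) against RNA (y axis, CPM plus 0.01, log scale) in control Th0 cells, as group means for each of the 22265 gene intervals, with the 221 members in red and dashed lines at 1.5 CPM per kb and 2 CPM. The members fill the upper right corner, a sparse zone between the expressed unmarked genes and the marked genes with little RNA, because the rule was applied to these values.

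The thresholds cut through a continuous distribution. In the lower of the control ChIP libraries, Perp at 1.501 and Sepn1 at 1.505 CPM per kb lay just inside, while Tmem185b at 1.498 and Fam101b at 1.497 CPM per kb lay just outside. In the lowest of the 3 control RNA libraries, H2-DMb1 and Stc1 at 2.00 CPM lay just inside, and Cd79b at 1.99 and Ttc30a2 at 1.95 CPM lay just outside. With a threshold of 1 CPM per kb in place of 1.5 there would be 691 members, and with 2 CPM per kb there would be 92.

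By position, 42 members lay within 100 kb of another member and formed 23 neighbouring pairs. These included the class I MHC genes H2-Q1, H2-Q5 and H2-Q10 on chromosome 17, the nuclear body genes Sp110 and Sp140 on chromosome 1, the row of Gatm, AA467197 and Slc30a4 on chromosome 2, Spib and Napsa on chromosome 7, and Pisd-ps1, Sfi1 and Drg1 on chromosome 11. Chromosome X held 1 member among its 1014 intervals, against 25 on chromosome 7 and 21 on chromosome 11. Intervals of 30 members overlapped another gene, Sfi1, Drg1, Aida, Pcx, Amigo2 and AA467197 among them, and 27 members were predicted genes with no established name. Reads of near-identical copies (the H2-Q genes, Pisd-ps1 and Pisd-ps2, zinc finger families) may have been split or lost, and the counting strand is not given in the sources used here, so the values of these genes are uncertain.

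In Th0 cells without Ezh2 the H3K27me3 density of most members was lower than in controls. The median over members was 1.11 and 1.09 CPM per kb in Ezh2-deleted libraries 10 and 9, against 1.94 and 2.22 CPM per kb in control libraries 33 and 7. The density in Ezh2-deleted cells was at a median of 54.4% of control, with an interquartile range of 42.2 to 63.7%. Both Ezh2-deleted libraries lay below both controls for 194 members and above both for 16, where 31.6% and 48.1% of the 20376 intervals tested did so. By edgeR 178 of the 220 members tested were lower and 8 were higher at an adjusted p under 0.05, against 20.6% and 32.2% of all intervals. Of the tested marked intervals below the RNA threshold, 86.7% were lower and 0.0805% higher. Without Ezh2-deleted library 10 or 9 edgeR called 0 intervals, with 155 and 144 members at an unadjusted p under 0.05. Control density chose the members and made the control side high, so nothing is read from these counts. The other member, the predicted gene Gm6682, named here after its values were seen, missed the ChIP count filter with 6 reads in its lower control library.

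Neither an input nor a spike-in was used, and a density scaled to the library total shows a mark's share of a library and not its amount. With library-size scaling the median log2 difference was -0.88 over members and 0.21 over all intervals. Scaled to 3485 expressed intervals with low density, it was -2.10 over members and -0.98 over all intervals, and 206 members were called lower and 0 higher. Those intervals had at least 20 CPM in every control Th0 RNA library and lay in the lowest 25% of mean control H3K27me3 density. That choice tends to raise their ratio of Ezh2-deleted to control density and so to lower other intervals. Nothing is read from the calls under this scaling. A change of scaling moves all intervals by nearly the same amount. The similar distance of members from the median interval under both scalings therefore follows from the method.

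**Figure D2:**
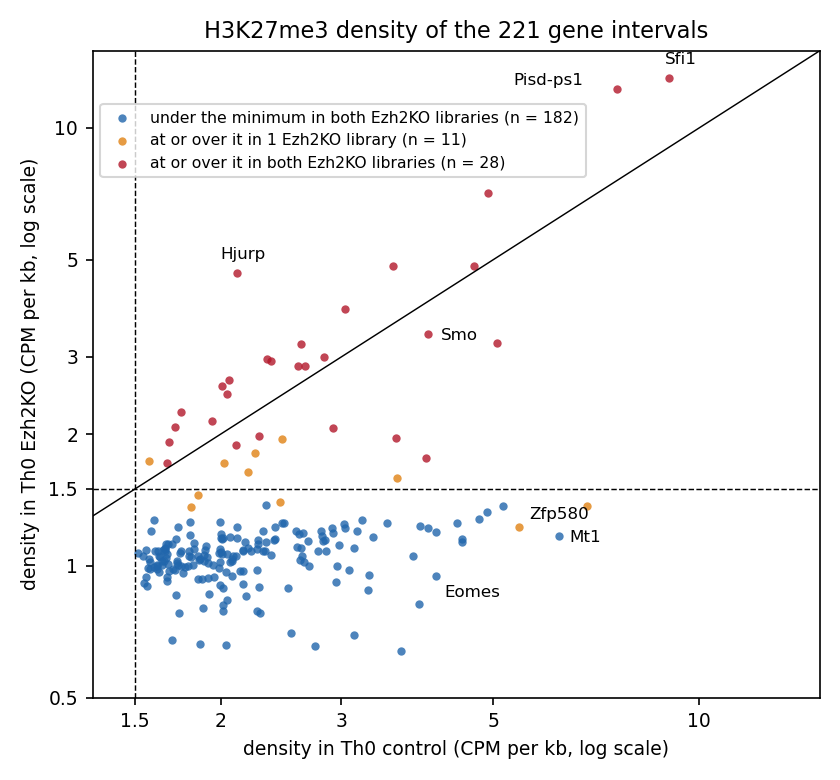
Mean H3K27me3 density of the 221 gene intervals in Ezh2-deleted Th0 cells (y axis) against control Th0 cells (x axis), both in CPM per kb on log scales, with the line of equality, dashed lines at the 1.5 CPM per kb threshold and colours for the number of Ezh2-deleted libraries at or over it. The 182 blue members lie under the horizontal dashed line because they were coloured by these values, and the 28 red members, with Pisd-ps1 and Sfi1 at the top, mostly lie on or above the line of equality under this scaling.

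The largest differences were at genes whose control density was high. Mt1 had densities of 1.18 and 1.16 CPM per kb in Ezh2-deleted cells, against 5.01 and 7.48 in controls, or 18.7% of control. Amigo2, an adhesion protein gene whose interval overlaps another, had 0.803 and 0.475 CPM per kb in Ezh2-deleted cells, against 2.43 and 4.90 in controls, the lowest share of any member at 17.4%. Nrarp, a feedback inhibitor of Notch signalling, stood at 21.0%, the stress gene Gadd45b at 22.2% and Eomes at 23.0%. In each of them the control libraries differed from each other by more than the Ezh2-deleted ones did. Zfp580 had 1.51 and 0.943 CPM per kb in Ezh2-deleted cells, against 4.96 and 5.95 in controls.

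At the other end of the set, density scaled to the library total was mostly at or above that of controls in Ezh2-deleted cells. This direction depended on the scaling. Scaled to the expressed intervals chosen for low control density, all 28 members described next lay below 0 (log2 -2.38 to -0.01, median -0.96). The median of all intervals was then -0.98, so the turn in direction is not read as a loss of the mark. In 28 members both Ezh2-deleted libraries stayed at or over 1.5 CPM per kb, in 11 members 1 library did, and in 182 members neither. Of the 28, 21 had a higher mean density in Ezh2-deleted cells than in controls and 12 were predicted genes. Pisd-ps1, a pseudogene copy of phosphatidylserine decarboxylase, had 13.0 and 11.5 CPM per kb in Ezh2-deleted cells and 7.67 and 7.51 in controls. Its neighbour Sfi1, which encodes a centrosome protein, had 12.3 and 13.7 CPM per kb in Ezh2-deleted cells and 9.12 and 8.97 in controls. Hjurp, the chaperone that loads the centromeric histone CENP-A, had the highest share at 221%, with 4.71 and 4.61 CPM per kb in Ezh2-deleted cells and 2.37 and 1.86 in controls. Smo, the signal transducer of the Hedgehog pathway, was among the 28 with 3.61 and 3.17 CPM per kb in Ezh2-deleted cells and 3.15 and 4.88 in controls, which overlap. Under library-size scaling Sp140 and Sp110 also had higher values in Ezh2-deleted than in control cells, at 3.11 and 3.30 against 2.63 and 2.61 CPM per kb for Sp140. Under the other scaling the log2 differences were -0.49 for Pisd-ps1, -0.67 for Sfi1, -0.01 for Hjurp, -0.89 for Sp140 and -0.84 for Sp110.

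The RNA of the members was tested in iTreg cells, whose libraries the rule did not use. All 221 genes passed the count filter, which their RNA threshold ensures. In Ezh2-deleted iTreg cells 53 members (24.0%) were higher than in control iTreg cells and 30 (13.6%) were lower, at an adjusted p under 0.05 by edgeR's quasi-likelihood test over 12845 genes. The shares over all tested genes were 9.45% higher and 7.26% lower, and over expressed genes below the H3K27me3 threshold, all 9800 of which passed the filter, 6.91% and 6.99%. Over marked genes below the RNA threshold they were 23.5% and 8.57%, so the share of higher members was near that of other marked genes. Only 852 of those 3828 genes passed the filter, and a gene can pass it through the group where its RNA is high. The median log2 difference was 0.10 over members and 0.01 over all genes. In this fit the share of members exceeded that of all genes in both directions. The excess of lower members was absent without library Ezh2KO.165, as given below. By individual libraries, 51 members had all 3 Ezh2-deleted values above all 3 control values and 38 had all below, where 12.7% and 12.8% of genes did so.

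Library Ezh2KO.165 bears on these counts more than control library 177. Without Ezh2KO.165, 33.5% of members were higher and 23.1% lower, against 21.0% and 23.3% of all genes. Without control iTreg library 177 alone, 21.3% of members were higher and 15.4% lower, against 9.18% and 7.05%. Without both, 38.0% of members were higher and 26.7% lower, against 28.7% and 28.3%. The share of higher members stayed above the background in all 3 cases, and the share of lower members was at or under it in both fits without Ezh2KO.165. All 83 members called kept their call and direction without Ezh2KO.165, and 81 did without both libraries. Fitted on the 6 iTreg libraries alone, 7.76% of members were higher and 5.02% lower, against 2.67% and 1.68% of all genes.

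**Figure D3:**
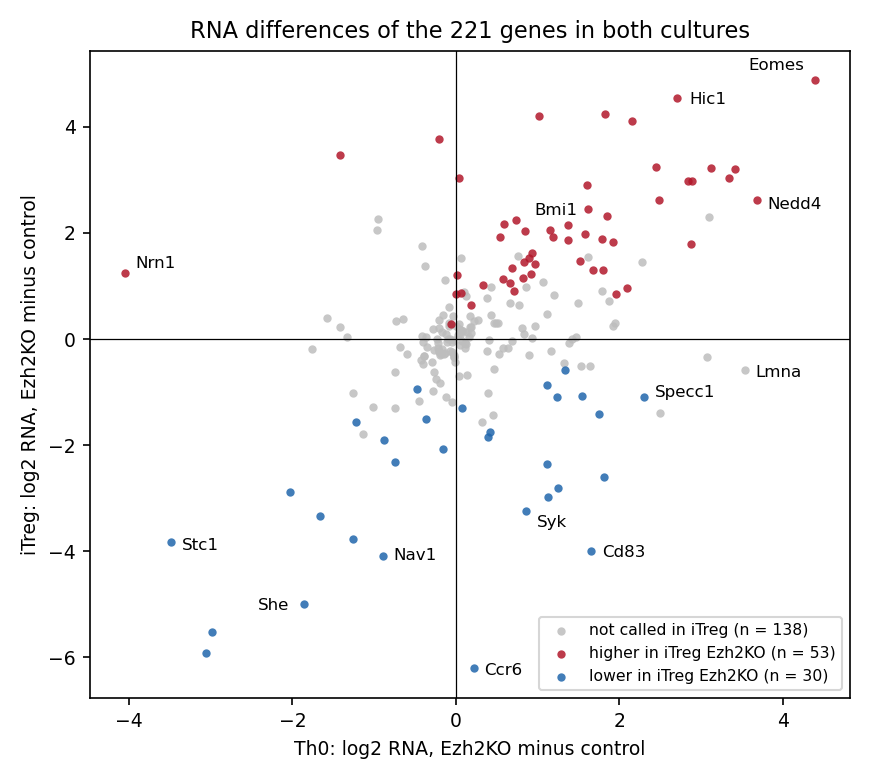
RNA difference of the 221 genes between Ezh2-deleted and control cells in iTreg (y axis) and Th0 (x axis), each as log2, with the 53 genes called higher in red, the 30 called lower in blue and genes not called in grey. Called increases lie mainly in the upper right quadrant, called decreases spread over both lower quadrants, and Nrn1 stands alone far to the left.

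The groups by role that follow were formed after the values were seen. Their counts, and those of the gene lists, stand beside the 9.45% of all genes that rose and 7.26% that fell. Among members 24.0% rose and 13.6% fell. Transcription and chromatin genes numbered 30, of which 6 rose and 5 fell in Ezh2-deleted iTreg cells. Eomes (chr9:118478212-118486132), with the largest increase of the set, was at 345, 389 and 59.7 CPM in Ezh2-deleted iTreg libraries, against 11.9, 9.18 and 5.92 CPM in control iTreg libraries. The groups did not overlap although library Ezh2KO.165 was far below the other Ezh2-deleted libraries, and the log2 difference was 4.88 (SE 0.63, adjusted p = 0.000706, edgeR) with it, 5.35 without it and 5.12 without library 177 as well. Hic1 (chr11:75164565-75169519) had 77.9, 71.8 and 16.7 CPM in Ezh2-deleted iTreg libraries, against 3.16, 1.96 and 2.01 CPM in controls. Its log2 difference was 4.54 (SE 0.54, adjusted p = 0.000455, edgeR; 4.97 and 4.86).

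Bmi1 (chr2:18677018-18686629), a core subunit of PRC1 and so itself part of the Polycomb system, had the smallest adjusted p of the set. Its RNA stood at 258, 240.4 and 301 CPM in Ezh2-deleted iTreg libraries, against 50.2, 49.2 and 47.0 CPM in controls. In this gene library Ezh2KO.165 did not stand apart, and the log2 difference was 2.45 (SE 0.11, adjusted p = 2.57e-06, edgeR; 2.36 and 2.32). Its H3K27me3 density in Th0 cells was 0.868 and 1.18 CPM per kb in Ezh2-deleted libraries, against 2.67 and 2.62 in controls. Cbx8, a PRC1 subunit that binds H3K27me3, had 7.85, 7.5 and 10.6 CPM in Ezh2-deleted iTreg libraries and 8.26, 7.91 and 7.41 CPM in controls, which overlap (adjusted p = 0.631, edgeR). These were the only members among 20 listed PRC1 subunits, of which 3 rose and 2 fell, and none of 11 listed PRC2 subunits was a member.

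Among the other transcription factors, Prdm1, which drives terminal differentiation of lymphocytes, and Hopx, a homeodomain cofactor of effector T cells, did not pass the test in iTreg cells. Prdm1 was at 26.6, 25.1 and 8.49 CPM in Ezh2-deleted iTreg libraries and at 13.2, 8.04 and 11.2 CPM in controls (adjusted p = 0.161, edgeR). Hopx was at 34.3, 42.2 and 18.5 CPM in Ezh2-deleted iTreg libraries and at 23.8, 19.99 and 15.9 CPM in controls (adjusted p = 0.127, edgeR). With Eomes they are the members on a list of 57 T cell transcription factors, of which 12 rose and 7 fell. Nacc2, a BTB-domain repressor, fell by 2.89 on the log2 scale (SE 0.53, adjusted p = 0.00463, edgeR; -3.57 and -2.90). Hjurp fell by 0.94 (SE 0.13, adjusted p = 0.000826, edgeR; -0.85 and -0.80), with 8.34, 7.55 and 6.57 CPM in Ezh2-deleted iTreg libraries and 13.8, 13.8 and 15.7 CPM in controls.

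Of 13 developmental signalling genes 6 rose and 2 fell, where 24.0% of members rose and 13.6% fell. Smo rose in every Ezh2-deleted iTreg library, at 12.3, 11.1 and 6.57 CPM, against 1.33, 1.06 and 0.766 CPM in controls, a log2 difference of 3.24 (SE 0.29, adjusted p = 0.00011, edgeR; 3.47 and 3.28). Its density in Ezh2-deleted Th0 cells, given above, overlapped that of controls. Bmpr1a, a type I receptor for bone morphogenetic proteins, had 50.6, 49.0 and 42.9 CPM in Ezh2-deleted iTreg libraries, against 28.8, 26.0 and 18.9 CPM in controls (log2 0.96, SE 0.16, adjusted p = 0.00226, edgeR; 1.02 and 0.86). Acvrl1, another type I receptor of the TGF-beta family, moved the other way, with 7.27, 10.8 and 2.42 CPM in Ezh2-deleted iTreg libraries and 101, 82.4 and 25.4 CPM in controls (log2 -3.34, SE 0.60, adjusted p = 0.00405, edgeR; -2.94 and -3.35). Stc1, which encodes the secreted hormone stanniocalcin, also fell, to 0.743, 0.772 and 0.0456 CPM in Ezh2-deleted iTreg libraries, against 9.63, 8.81 and 4.07 CPM in controls. On the wider list of 45 developmental signalling genes, 4 rose and 6 fell among the 29 tested.

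All 6 MHC genes had higher means in Ezh2-deleted iTreg cells, and 5 passed the test, where 24.0% of members and 9.45% of all genes rose. H2-Q1, H2-Q5 and H2-Q10 are neighbours with near-identical sequences, so they are not separate observations. H2-Q5, a class Ib heavy chain, had 154, 147 and 255 CPM in Ezh2-deleted iTreg libraries, against 82.1, 53.6 and 56.9 CPM in controls (log2 1.53, SE 0.24, adjusted p = 0.00192, edgeR; 1.23 and 1.15). H2-Q10, whose promoter is printed above, had 9.95, 8.15 and 12.8 CPM in Ezh2-deleted iTreg libraries, against 5.56, 4.65 and 6.37 CPM in controls (log2 0.90, adjusted p = 0.0154, edgeR; 0.72 and 0.82), and its call was lost without control iTreg library 155 (adjusted p up to 0.126 over its alternatives). H2-Q1 (log2 0.87, adjusted p = 0.0325, edgeR; 0.46 and 0.47) lost its call when any 1 of the control iTreg or Th0 libraries was left out. H2-Bl did not pass (adjusted p = 0.0644, edgeR).

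The other pair of MHC genes belongs to the class II pathway of antigen-presenting cells. H2-Ab1, the class II beta chain, stood at 24.0, 28.8 and 15.9 CPM in Ezh2-deleted iTreg libraries, against 9.44, 6.16 and 3.71 CPM in controls (log2 1.83, SE 0.40, adjusted p = 0.0109, edgeR; 2.04 and 1.75). H2-DMb1, part of the chaperone that loads peptides on class II, stood at 7.35, 8.53 and 6.75 CPM in Ezh2-deleted iTreg libraries, against 1.60, 1.06 and 1.85 CPM in controls (log2 2.33, SE 0.36, adjusted p = 0.00181, edgeR; 2.40 and 2.57). B cell markers were lower in the same Ezh2-deleted libraries, as given below. A list of 6 dendritic cell markers summed to 3.47 to 8.18 CPM in Ezh2-deleted iTreg and 1.05 to 1.45 CPM in control iTreg, with 3 to 4 of the 6 detected in Ezh2-deleted libraries and 2 to 4 in controls. The part of such cells in these values was not tested.

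Stress and p53 pathway genes numbered 6, and 2 of them rose, where 24.0% of members did. Perp, a p53 target at cell junctions, had 41.9, 42.9 and 5.52 CPM in Ezh2-deleted iTreg libraries, against 4.80, 4.45 and 2.22 CPM in controls (log2 2.98, SE 0.63, adjusted p = 0.00927, edgeR; 3.47 and 3.19). Phlda3, a p53 target that restrains Akt, had 25.7, 28.6 and 13.1 CPM in Ezh2-deleted iTreg libraries, against 13.1, 8.73 and 7.01 CPM in controls (log2 1.23, adjusted p = 0.0207, edgeR; 1.502 and 1.31), and lost its call when Ezh2-deleted iTreg library Ezh2KO.150 or Ezh2KO.153 or control iTreg library 155 or 177 was left out. Cdkn1a, the cyclin-dependent kinase inhibitor p21, was uneven, at 103, 138 and 24.3 CPM in Ezh2-deleted iTreg libraries and 70.6, 51.5 and 40.5 CPM in controls (adjusted p = 0.4, edgeR).

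Intracellular signalling genes (23) held 5 that rose and 4 that fell, and metabolism and transport genes (22) held 6 and 2. The shares over members were 24.0% and 13.6%. Nedd4, a ubiquitin ligase, had 163, 164 and 35.1 CPM in Ezh2-deleted iTreg libraries, against 20.8, 21.5 and 17.0 CPM in controls (log2 2.62, SE 0.46, adjusted p = 0.00371, edgeR; 3.05 and 2.95). Hip1, an endocytic adaptor, rose by 3.03 on the log2 scale (SE 0.61, adjusted p = 0.00706, edgeR; 3.46 and 3.09) and by 3.64 without control iTreg library 154. Sepn1, a selenoprotein of the endoplasmic reticulum, had 73.1, 69.5 and 49.0 CPM in Ezh2-deleted iTreg libraries, against 7.20, 5.55 and 7.82 CPM in controls (log2 3.23, SE 0.25, adjusted p = 5.03e-05, edgeR; 3.38 and 3.48). Gatm, the first enzyme of creatine synthesis, rose by 4.10 (SE 0.74, adjusted p = 0.00423, edgeR; 4.61 and 4.31), and its neighbour AA467197 by 4.24 (SE 0.88, adjusted p = 0.00881, edgeR; 4.75 and 4.28).

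She, an adaptor with an SH2 domain, had the largest decrease among members with an established name and at least 5 CPM in the higher group. Its RNA was at 1.86, 2.49 and 0.685 CPM in Ezh2-deleted iTreg libraries, against 55.9, 67.5 and 38.0 CPM in controls (log2 -4.99, SE 0.43, adjusted p = 9.18e-05, edgeR; -4.63 and -4.83). Syk, a tyrosine kinase best known from B cell receptor signalling, was at 2.06, 1.72 and 1.00 CPM in Ezh2-deleted iTreg libraries, against 20.2, 21.3 and 3.91 CPM in controls (log2 -3.23, SE 0.58, adjusted p = 0.00392, edgeR; -2.99 and -3.45). Aqp3, a water and glycerol channel, was at 33.8, 27.0 and 108 CPM in Ezh2-deleted iTreg libraries, against 219, 227 and 190.1 CPM in controls. Its log2 difference of -1.91 (adjusted p = 0.0155, edgeR) became -2.80 without library Ezh2KO.165 and -2.87 without both, and lost its call without library Ezh2KO.150 (adjusted p up to 0.153 over its alternatives).

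Of 12 cytoskeleton and lamina genes, 6 fell in Ezh2-deleted iTreg cells and none rose, where 7.26% of all genes and 13.6% of members fell. Without Ezh2KO.165 7 fell and 1 rose, where 23.3% of all genes fell. The group, like the other groups by role, was formed after the values were seen. Nav1, a microtubule plus-end protein known from neurons, was at 20.1, 18.6 and 1.83 CPM in Ezh2-deleted iTreg libraries, against 227, 272 and 191 CPM in controls (log2 -4.08, SE 0.70, adjusted p = 0.00317, edgeR; -3.57 and -3.69). Amotl1, a junction protein that binds actin and Yap, was at 2.56, 2.27 and 0.685 CPM in Ezh2-deleted iTreg libraries, against 8.87, 9.38 and 10.4 CPM in controls (log2 -2.36, SE 0.39, adjusted p = 0.00237, edgeR; -1.97 and -1.92). Vill, a villin-like actin-binding protein gene, fell by 2.32 (adjusted p = 0.0222, edgeR; -1.84 and -2.10) and lost its call without control iTreg library 154 or 155. Outside these groups, Dennd5a, a regulator of vesicle traffic, had the smallest adjusted p of the members that fell, with 37.4, 36.1 and 46.2 CPM in Ezh2-deleted iTreg libraries, against 162, 161 and 184 CPM in controls (log2 -2.07, SE 0.14, adjusted p = 2.26e-05, edgeR; -2.19 and -2.13).

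**Figure D4:**
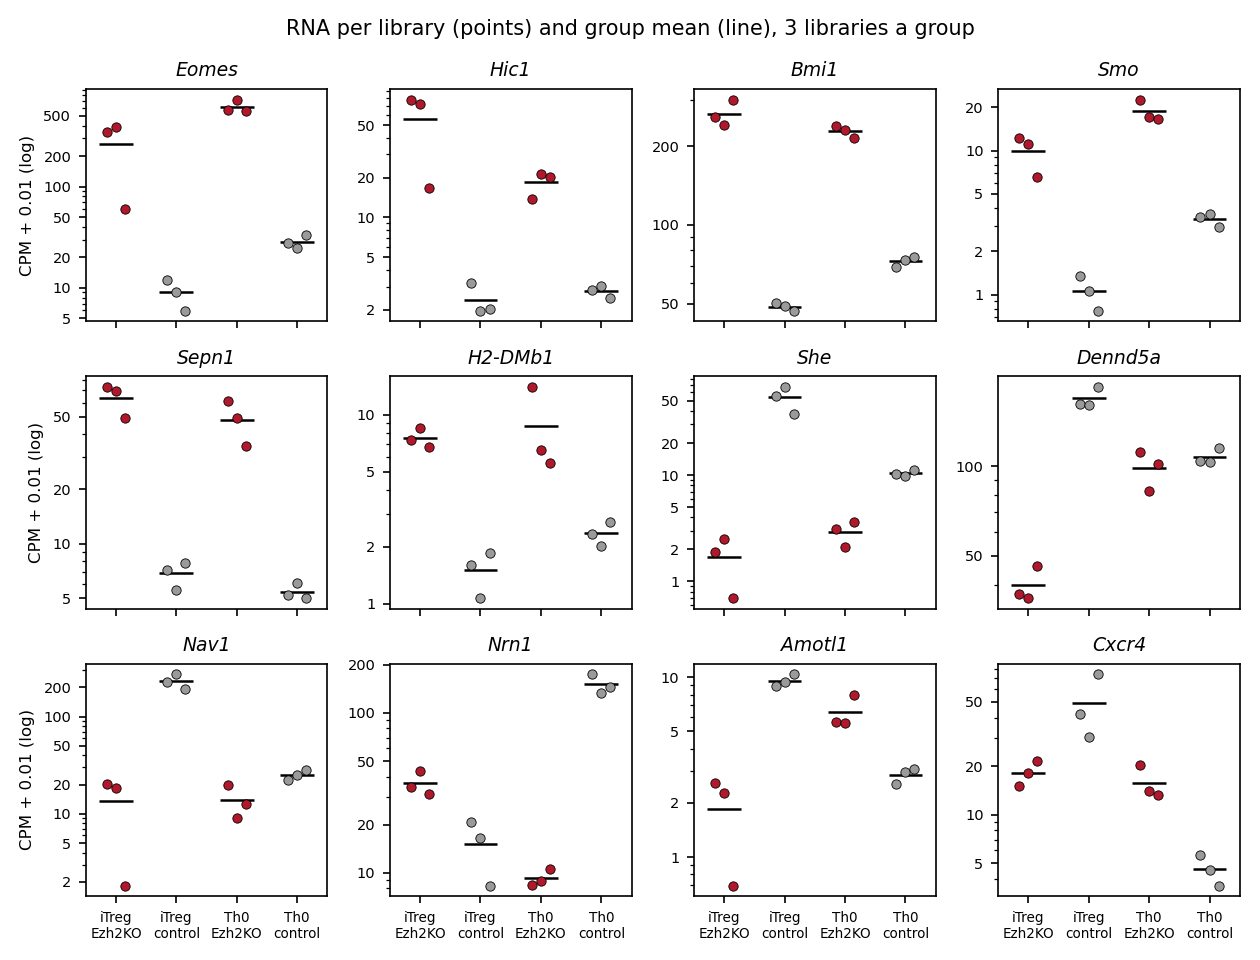
RNA of 12 members in each library, in CPM plus 0.01 on log scales, with 3 points and a mean line for each of Ezh2-deleted iTreg, control iTreg, Ezh2-deleted Th0 and control Th0. In Eomes, Hic1, Bmi1, Smo and Sepn1 the Ezh2-deleted points lie above the control points in both cultures, whereas Amotl1 and Cxcr4 lie below in iTreg and above in Th0, and Nrn1 the reverse.

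Cytokine, chemokine and innate genes (11) held 2 that rose and 4 that fell, where 24.0% of members rose and 13.6% fell. Oas1a, an interferon-induced sensor of double-stranded RNA, rose to 4.83, 4.03 and 9.13 CPM in Ezh2-deleted iTreg libraries, against 0.609, 0.408 and 0.282 CPM in controls (log2 3.77, SE 0.61, adjusted p = 0.00228, edgeR; 3.34 and 3.10). Cxcr4, the receptor for CXCL12, fell to 15.1, 18.1 and 21.4 CPM in Ezh2-deleted iTreg libraries, against 42.1, 30.5 and 74.2 CPM in controls (log2 -1.42, adjusted p = 0.0129, edgeR; -1.55 and -1.13), and lost its call without library Ezh2KO.150. Ccr6, a chemokine receptor of Th17, regulatory T and B cells, had 0.0413, 0.0429 and 0 CPM in Ezh2-deleted iTreg libraries, against 2.13, 2.49 and 2.9 CPM in controls (adjusted p = 0.000258, edgeR). Each Ezh2-deleted library held at most 1 read of it, so no fold is given.

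In 6 of the 7 B cell and costimulation genes all 3 Ezh2-deleted Th0 libraries lay above the controls, and in 1 they lay below. Of all genes 33.2% lay above and 26.0% below, and of members 49.3% and 19.5%. The control libraries of this comparison chose the members. The group includes Cd22, an inhibitory co-receptor of the B cell receptor, Tnfrsf13c, the receptor for BAFF, and Cd83, Cd86 and Icosl of antigen-presenting cells, and 3 of the 7 fell in Ezh2-deleted iTreg cells. Cd22 was at 0.289, 0.129 and 0.228 CPM in Ezh2-deleted iTreg libraries, against 1.87, 1.10 and 1.05 CPM in control iTreg. In Th0 cells it was at 43.8, 19.0 and 22.5 CPM in Ezh2-deleted libraries, against 6.75, 5.26 and 11.7 CPM in controls. Cd83 was at 0.124, 0.129 and 0.456 CPM in Ezh2-deleted iTreg libraries, against 3.62, 5.06 and 2.66 CPM in control iTreg, and at 21.9, 10.5 and 9.25 CPM in Ezh2-deleted Th0, against 3.78, 3.86 and 5.27 CPM in control Th0. For Cd83 and Cd22 the Ezh2-deleted libraries lay below their controls in iTreg and above them in Th0. The iTreg difference of Cd22 lost its call without libraries Ezh2KO.165 and 177 (adjusted p = 0.128, edgeR).

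The sum of the 6 listed B cell markers outside the set lay in the same order, at 3.84, 3.47 and 5.48 CPM in Ezh2-deleted iTreg and 9.86, 9.10 and 10.6 CPM in control iTreg. In Th0 cells the sum was 136, 57.5 and 68.1 CPM in Ezh2-deleted libraries and 17.6, 17.6 and 28.3 CPM in controls. The Ezh2-deleted libraries lay above the controls in Th0 for all 6 and below them in iTreg for 4, with overlap in iTreg for Cd79b and Ebf1. All 6 had reads in every library except Pax5, which was at 0 in Ezh2-deleted iTreg library Ezh2KO.153. The transcription factor gene Spib, known from B and plasmacytoid dendritic cells, moved with them, at 0.248, 0.0858 and 0.0913 CPM in Ezh2-deleted iTreg, 1.45, 1.22 and 0.806 CPM in control iTreg, 10.8, 5.31 and 5.84 CPM in Ezh2-deleted Th0 and 2.77, 3.19 and 3.86 CPM in control Th0. How far these RNA values come from B cells in the cultures was not tested. The same limit holds for H2-Ab1 in Th0 cells, at 84.1, 39.3 and 44.2 CPM in Ezh2-deleted libraries and 12.4, 13.0 and 17.9 CPM in controls.

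**Figure D5:**
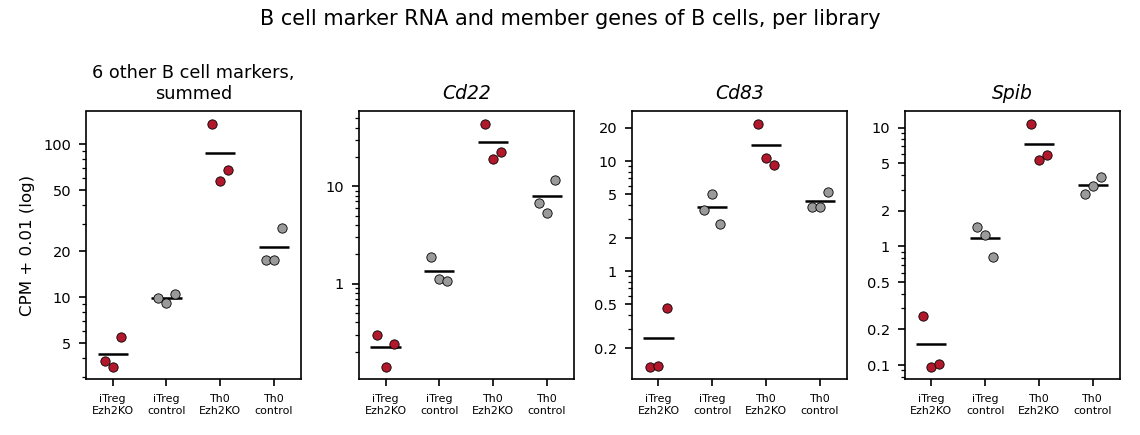
RNA per library in CPM plus 0.01 on log scales for the sum of 6 B cell markers outside the set and for the members Cd22, Cd83 and Spib, with 3 points and a mean line per group. All 4 panels have the same shape, lowest in Ezh2-deleted iTreg and highest in Ezh2-deleted Th0, where library Ezh2KO.165 is the top point.

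CD8 T cell markers also differed between the iTreg groups. Cd8a and Cd8b1 summed to 138, 132 and 39.6 CPM in Ezh2-deleted iTreg and 26.7, 26.6 and 18.01 CPM in control iTreg, while every Th0 library lay between 6.33 and 10.0 CPM. Cd8a alone was at 122, 117 and 17.7 CPM in Ezh2-deleted iTreg and 15.8, 17.1 and 8.58 CPM in control iTreg. Cd8b1 differed less, at 16.8, 15.7 and 21.9 CPM in Ezh2-deleted iTreg and 10.9, 9.46 and 9.43 CPM in control iTreg. Only 1 of the 2 genes was called higher in iTreg. Eomes is also expressed by CD8 T cells. Its RNA stood at 569, 726 and 555 CPM in Ezh2-deleted Th0, against 27.9, 24.7 and 33.5 CPM in control Th0. Another list covered natural killer cells, gamma-delta T cells and NKT cells (6 of 8 genes found). It summed to 3.63, 3.52 and 1.14 CPM in Ezh2-deleted iTreg, against 1.10, 0.734 and 0.443 CPM in control iTreg. In Th0 it summed to 3.51, 3.01 and 2.14 CPM in Ezh2-deleted libraries, against 0.447, 0.519 and 0.306 CPM in controls. The part of CD8-expressing cells in the iTreg values, and of any of these cell types in the Eomes values, was not tested.

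The rule used control Th0 RNA, so the Th0 comparison of genotypes is a description. All 3 Ezh2-deleted Th0 libraries lay above all 3 controls for 109 members and below them for 43, where 33.2% and 26.0% of the 12845 genes did so. Of the tested marked genes below the RNA threshold, 32.3% were higher and 0.822% lower by edgeR, where all genes were at 8.74% and 3.22%. Among members 51 were higher and 9 lower. Those shares of members, 23.1% and 4.07%, were 36.2% and 8.60% without Ezh2-deleted iTreg library Ezh2KO.165, where all genes were at 15.8% and 11.3%. Control Th0 RNA chose the members, so nothing is read from the Th0 shares. Without control Th0 library 173 or 176 14.5% of members were higher, where 4.68% and 4.58% of genes were, and without any 1 Th0 library 1.36 to 1.81% of members and 1.45 to 1.62% of genes were lower. Of the 53 members that rose in iTreg, 44 had all Ezh2-deleted Th0 libraries above the controls. Of the 30 that fell in iTreg, 14 had them above and 12 below. Over all members 49.3% had them above and 19.5% below. The shares over all genes called in iTreg are not given here, so these counts are not read as particular to the set. Across the 221 genes the log2 differences in the cultures ran together loosely (Spearman rho 0.42, Pearson r 0.49). The log2 density ratio ran weakly against the Th0 RNA difference (rho -0.29) and hardly with the iTreg difference (rho -0.04). The points of each correlation share the libraries and, for Th0, the control samples that chose them, so no test is given.

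Several members had a large Th0 difference beside a small iTreg one. Lmna, which encodes the lamins A and C of the nuclear envelope, was at 36.3, 27.9 and 28.1 CPM in Ezh2-deleted Th0 libraries, against 3.05, 2.30 and 2.41 CPM in control Th0. In iTreg it was at 0.909, 0.815 and 0.730 CPM in Ezh2-deleted libraries and 1.56, 1.39 and 0.766 CPM in controls (adjusted p = 0.186, edgeR). Mt1, with the highest control density of the genes printed above, was at 30.9, 39.5 and 30.0 CPM in Ezh2-deleted Th0, against 4.03, 3.00 and 4.62 CPM in control Th0. In iTreg its groups overlapped, at 48.4, 52.9 and 27.6 CPM in Ezh2-deleted libraries and 57.3, 64.9 and 40.7 CPM in controls (adjusted p = 0.503, edgeR). Cdkn1a was at 197, 203 and 218 CPM in Ezh2-deleted Th0, against 60.9, 55.3 and 47.8 CPM in control Th0. Whether these differences depend on culture was not tested for single genes.

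Nrn1, which encodes the membrane-anchored protein neuritin, had the most negative Th0 difference of the set. Its RNA was at 8.42, 8.95 and 10.5 CPM in Ezh2-deleted Th0 libraries, against 174.1, 133 and 145 CPM in control Th0. In iTreg it was at 34.5, 43.3 and 31.0 CPM in Ezh2-deleted libraries, against 20.8, 16.6 and 8.34 CPM in controls, a rise of 1.25 on the log2 scale (SE 0.29, adjusted p = 0.014, edgeR; 1.35 and 1.05). Its H3K27me3 density was lower in Ezh2-deleted Th0 cells, at 1.16 and 1.29 CPM per kb, against 2.55 and 3.27 in controls. Stc1 was below its controls in both cultures, at 0.0386, 0.371 and 0.141 CPM in Ezh2-deleted Th0 and 2.11, 2.00 and 2.06 CPM in control Th0.

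Gnas and Sp110 were both high in every group and did not pass the iTreg test. Gnas, which encodes the stimulatory G protein alpha subunit from an imprinted locus, was the highest named member in counts, at 834, 829 and 433 CPM in Ezh2-deleted iTreg, 949.8, 919 and 698 CPM in control iTreg, 759, 735 and 742 CPM in Ezh2-deleted Th0 and 844, 852 and 792 CPM in control Th0. Sp110 was at 249, 253 and 332 CPM in Ezh2-deleted iTreg, 267, 283 and 332 CPM in control iTreg, 241, 295 and 269.7 CPM in Ezh2-deleted Th0 and 254, 226 and 252 CPM in control Th0. The adjusted p in iTreg was 0.495 for Gnas and 0.817 for Sp110 (edgeR). Per kb of exon, H2-Q1 at 58.9 and Sp110 at 63.2 CPM per kb exceeded Gnas at 36.1 CPM per kb in control Th0 cells, while Eomes was at 3.89 CPM per kb.

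The 28 members at or over 1.5 CPM per kb in both Ezh2-deleted ChIP libraries, by library-size scaling, held 2 that rose, Smo and a predicted gene, and 2 that fell, Hjurp and Fam84a, in Ezh2-deleted iTreg (Fam84a is named after its values were seen). The 182 members below the threshold in both Ezh2-deleted ChIP libraries held 48 that rose and 28 that fell, and the 11 between them held 3 and 0. The split was made after the values were seen and the groups are of unequal size, so no difference between them was tested.

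Within Ezh2-deleted cells, iTreg was compared with Th0. In iTreg 46 members (20.8%) were higher and 32 (14.5%) were lower by edgeR, against 16.6% and 8.75% of all genes. Without Ezh2-deleted Th0 library Ezh2KO.165, Ezh2KO.174 or Ezh2KO.175, 7.24, 6.79 and 7.24% of members were higher and 8.14, 8.60 and 8.60% lower, so that more were lower than higher. The shares of all genes were then smaller as well, at 5.54, 5.34 and 5.26% higher and 3.13, 3.22 and 3.21% lower. Without control Th0 library 176 13.6% of members and 12.1% of genes were higher. Aqp3 was higher by 3.87 on the log2 scale (SE 0.49, adjusted p = 0.00112, edgeR; 2.98 without iTreg library Ezh2KO.165), and Tead1, a DNA-binding partner of Yap, by 3.44 (SE 0.48, adjusted p = 0.00176, edgeR). Lmna fell by 5.25 (SE 0.28, adjusted p = 2.47e-05, edgeR), and the B cell gene Cd22 fell by 7.04 (SE 0.55, adjusted p = 0.000132, edgeR), beside the B cell marker levels given above. Matk, a kinase that inhibits Src family kinases, was called higher by 5.40 but rested on library Ezh2KO.165, with 3.80, 3.30 and 238 CPM in Ezh2-deleted iTreg and 2.32, 1.78 and 1.58 CPM in Ezh2-deleted Th0. Without that library its log2 difference was 0.88 (adjusted p = 0.507, edgeR).

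After Ezh2 deletion most of the set was still expressed. A level of at least 2 CPM in all 3 libraries was reached by 181 members in Ezh2-deleted iTreg, 184 in control iTreg and 204 in Ezh2-deleted Th0. Together the 221 genes took 0.743 to 0.920% of RNA counts in Ezh2-deleted iTreg, 0.674 to 0.805% in control iTreg, 0.754 to 0.774% in Ezh2-deleted Th0 and 0.567 to 0.578% in control Th0. In ChIP libraries they took 1.17 and 1.19% of counts in Ezh2-deleted cells and 1.72 and 1.82% in controls. The p-values measure the spread between these libraries.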

How the data were processed

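RNA-seq came from 12 libraries and H3K27me3 ChIP-seq (10 ug antibody per ChIP) from 4. Per the submitters' processing notes, the authors used Trimmomatic 0.30, TopHat2 2.0.6, Bowtie2 2.1.0 and featureCounts 1.4.2 with mm10. The deposited values are raw read counts per gene (RNA) and per whole gene interval (ChIP), and every value was a whole number. How reads in overlapping intervals or on either strand were counted is not given in the sources used here.

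CPM, density (CPM per kb) and the members were computed from these counts with library totals over all genes. The set, the gene lists and the role groups were chosen with earlier results of these data known, and the role groups after the values of the members were seen. RNA counts were tested with edgeR 4.0.16 in R 4.3.3 (TMM normalization, genes kept by filterByExpr at a minimum count of 10, robust quasi-likelihood F test, 12 libraries in 1 fit of 4 groups, two-sided). ChIP counts were tested alike with library-size scaling. P-values were adjusted by Benjamini-Hochberg over all features, with 0.05 as the threshold. Log2 differences are Ezh2-deleted minus control, or iTreg minus Th0. The fit was tested on simulated data.

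The rule used control Th0 RNA and ChIP libraries, so p-values of members are given only for comparisons of other groups. The control Th0 RNA libraries still entered the shared fit that estimated the spread behind those p-values. Named genes are the highest in density or RNA, those with the largest differences, those at the thresholds and members of listed pathways. Predicted genes are not named beyond 1 that missed a filter. Reads carry no molecular identifiers. Promoter sequences are from RefSeq, matched by symbol or, for 8 genes, synonym. Alternatives included DESeq2 1.42.0, other scalings and thresholds, other members, and each library left out.

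Values of 1 gene are not reported here.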

Additional observations from a re-analysis of the deposited data

Results flagged for a closer look

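In 11 of the 154 members other than predicted genes that averaged 5 CPM or more in at least 1 genotype of each culture, the genotype difference had opposite signs in the cultures in every library, and in none of them was that difference between cultures tested. This is 7.14%, against 2.95% of all 9611 genes at that level, and the control Th0 libraries chose the members. The iTreg log2 difference was -2.36 for Amotl1, -3.23 for Syk, -1.09 for Kcnk6, a potassium channel gene, -1.08 for Specc1, -1.84 for P2ry1, a nucleotide receptor gene, -1.56 for Actr3b, -1.76 for Map6, -1.08 for Gna15, -1.40 for Cd24a and -1.42 for Cxcr4, all of which lay above their controls in Th0. Nrn1 was the exception, with 1.25 in iTreg and -4.05 in Th0. Actr3b and Cd24a did not pass the iTreg test (adjusted p = 0.104 and 0.123, edgeR). Specc1, Kcnk6 and Map6 passed it (adjusted p = 0.0388, 0.0195 and 0.0291, edgeR) but lost their calls without control iTreg library 154 or 155. Specc1 also lost its call without control iTreg library 177 or Ezh2-deleted iTreg library Ezh2KO.153.

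Specc1, a coiled-coil cytoskeletal protein gene, was at 37.3, 32.6 and 14.6 CPM in Ezh2-deleted iTreg, 48.5, 71.5 and 59.9 CPM in control iTreg, 18.5, 17.6 and 17.5 CPM in Ezh2-deleted Th0 and 2.64, 3.52 and 4.43 CPM in control Th0. Gna15, a G protein alpha subunit gene of blood cells, was at 6.98, 7.12 and 5.93 CPM in Ezh2-deleted iTreg, 15.9, 14.1 and 12.4 CPM in control iTreg, 12.8, 10.4 and 11.99 CPM in Ezh2-deleted Th0 and 3.82, 4.15 and 3.86 CPM in control Th0. Cxcr4 was at 20.3, 13.9 and 13.2 CPM in Ezh2-deleted Th0 and 5.61, 4.52 and 3.63 CPM in control Th0. In Specc1, Gna15 and Cxcr4 the Ezh2-deleted cultures lay closer to each other than the control cultures did. Each was chosen for a fall in iTreg and a rise in Th0, and its controls were higher in iTreg. The smaller gap largely follows from that, so nothing is read from it. Cd24a is also expressed by B cells, and Syk is best known from B cell receptor signalling. B cell markers were highest in Ezh2-deleted Th0 cells, and the part of B cells in the values of these genes was not tested.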

How the results depend on the processing

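The order of higher and lower shares turned for Ezh2-deleted iTreg against Th0 in the fit of 6 libraries and without any 1 Ezh2-deleted Th0 library. Of 84 alternatives other than a left-out library, 66 stayed within 1.5 times and 18 did not. The share of members higher in Ezh2-deleted iTreg was 7.76% in the fit of 6 libraries and 38.0% without iTreg libraries Ezh2KO.165 and 177, and the share lower was 5.02% and 26.7%. For Ezh2-deleted iTreg against Th0 those fits gave 5.45% and 38.5% higher, and 6.36% and 23.5% lower, where all genes were at 3.09% and 28.8% higher, and 1.69% and 28.9% lower. For Th0 genotypes the fit of 6 libraries and the fit without Ezh2KO.165 and 177 gave 45.7% and 47.1% higher and 17.6% and 18.6% lower. All genes were at 26.5% and 26.3% higher and 25.6% and 25.3% lower. Control Th0 RNA chose the members, so nothing is read from these Th0 shares. Members with at least 5 CPM gave 14.4% higher. The shares of all genes higher in the main fit were 9.45% for iTreg and 8.74% for Th0 genotypes. For Th0 genotypes DESeq2 called 6.39% of members lower, near the 6.76% of all genes. The share of members with higher H3K27me3 was 1.36% with TMM and 0 when scaled to unmarked expressed intervals. Of all intervals 24.3% and 0.0196% were higher under these scalings. The share was 6.52% for members of at least 2 CPM per kb and 2.11% without overlapping intervals, beside 32.2% of all intervals. The cause of these shifts was not tested. With 1 library left out, shares ran from 16.7 to 33.5% higher and 10.4 to 23.1% lower in iTreg, 6.79 to 25.3% and 8.14 to 16.3% for Ezh2-deleted cultures, 14.5 to 36.2% and 1.36 to 8.60% in Th0, and 0 to 4.55% and 0 to 82.8% for H3K27me3. Of 79 iTreg calls outside predicted genes, 26 held under every alternative and 55 under every one but the fit of 6 libraries. The set without the 28 members at or over 1.5 CPM per kb in both Ezh2-deleted ChIP libraries was added after seeing the data. No paired analysis was possible because the groups compared share at most 1 replicate number.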
